A study of Homo sapiens with 12 samples.

Results

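Transcript levels of 10 genes of polyamine synthesis and the methionine cycle were examined in 2 established HER2 lines of breast cancer, MDA-MB-453 and SKBR3, with and without stimulation by TWEAK, the TNF-family ligand of the receptor Fn14. The genes were ornithine decarboxylase (ODC1), its inhibitor OAZ1 and that inhibitor's decoy AZIN1, the polyamine enzymes AMD1, SRM, SMS and SAT1, and MTAP, MAT2A and MTR of methionine salvage and the methionine cycle. They are 10 of the 62696 gene identifiers counted, and all 10 were found by symbol and passed the filter on low counts in every comparison. The list was chosen on values of these same libraries as well as on pathway membership. Calls for the 10 genes are therefore given as a description and support nothing beyond themselves.

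RNA-seq of poly(A) RNA was carried out on 12 libraries, with 3 untreated (UT) and 3 TWEAK-treated replicates in each line. Cells were seeded in serum-containing DMEM and kept in Opti-MEM without serum for 8 h. The treated wells then received exogenous TWEAK at 10 ng/ml for 48 h, with fresh ligand added at 24 h. The same times of 8 h, 48 h and 24 h were assigned here to the untreated libraries. The labels call these controls untreated and do not say whether they were starved or mock-replenished alongside. Both lines are established cancer lines grown without stroma, and each line stands for itself alone.

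Polyamines are small polycations that bind nucleic acids and are needed for growth. ODC1 decarboxylates ornithine to putrescine, and this is the committed step of the pathway. AMD1 decarboxylates S-adenosylmethionine (SAM) to supply the aminopropyl groups that SRM and SMS add in turn to form spermidine and spermine. SAT1 acetylates both products for export or oxidation. Each aminopropyl transfer releases methylthioadenosine, which MTAP cleaves so that methionine can be rebuilt. MTR remethylates homocysteine to methionine with a folate-derived methyl group, and MAT2A turns methionine into SAM. ODC1 is a well-known transcriptional target of MYC through E-boxes, and OAZ1 and AMD1 are regulated by polyamines during translation, so transcript levels describe only one layer of this pathway.

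On hg38 the protein-coding gene ODC1 (ENSG00000115758.14) lies at chr2:10439968-10448327 on the minus strand, AMD1 (ENSG00000123505.19) at chr6:110874770-110898879 on the plus strand and MTR (ENSG00000116984.15) at chr1:236795260-236921278 on the plus strand. None of these 3 shares exonic bases with another gene model. The others are SRM on chromosome 1, MAT2A on 2, AZIN1 on 8, MTAP on 9, OAZ1 on 19, and SMS and SAT1 on X.

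The promoter sequences of ODC1, MTR and SRM are shown here because ODC1 and MTR carry the larger TWEAK differences reported below and because SRM, with ODC1, holds an E-box. They come from the RefSeq promoter windows of GRCh38.p14 (hg38), which span 250 bases before a transcript start and 50 bases after it. Windows were found for 9 of the 10 genes. Capitals mark matches to the E-box CACGTG or to the NF-κB consensus, and all sequences run 5′ to 3′ on the strand of the gene. The ODC1 stretch before the upstream start lies at chr2:10448328-10448577 on the minus strand. The second ODC1 stretch, at chr2:10447983-10448120 on the minus strand, surrounds a second RefSeq start and lies in intron 1 of the canonical GENCODE transcript. The MTR stretch lies at chr1:236795031-236795280 on the plus strand, and the SRM stretch at chr1:11060019-11060268 on the minus strand.
ODC1 upstream start: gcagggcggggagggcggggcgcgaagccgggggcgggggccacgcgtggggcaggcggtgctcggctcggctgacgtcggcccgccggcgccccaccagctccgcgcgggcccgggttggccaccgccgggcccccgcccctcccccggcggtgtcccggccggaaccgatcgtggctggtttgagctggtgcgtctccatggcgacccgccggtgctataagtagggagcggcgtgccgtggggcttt
ODC1 second start: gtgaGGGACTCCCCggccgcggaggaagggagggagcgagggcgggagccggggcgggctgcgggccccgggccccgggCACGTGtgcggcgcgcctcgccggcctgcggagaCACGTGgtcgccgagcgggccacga
MTR: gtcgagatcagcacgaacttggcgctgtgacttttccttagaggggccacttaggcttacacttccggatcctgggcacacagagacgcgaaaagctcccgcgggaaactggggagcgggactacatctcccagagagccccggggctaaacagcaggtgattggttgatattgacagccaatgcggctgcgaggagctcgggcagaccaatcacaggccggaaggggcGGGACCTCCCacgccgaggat
SRM: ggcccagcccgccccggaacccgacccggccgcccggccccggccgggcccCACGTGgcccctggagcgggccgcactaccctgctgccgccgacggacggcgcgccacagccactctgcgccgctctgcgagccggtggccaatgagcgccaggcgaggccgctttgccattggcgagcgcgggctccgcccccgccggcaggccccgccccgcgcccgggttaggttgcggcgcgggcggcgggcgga

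The 9 genes have 13 windows, since a gene can have several starts, and shares are given per window. The E-box was found in 2 of the 13, from ODC1 and SRM, and in 7.26% of all 35116 windows of the same length. In ODC1 both copies belonged to the second start, with first bases at -29 and 6 from it, and the upstream window held none. The SRM copy began at -199. The NF-κB consensus was matched in ODC1 at -104 from the second start, in MTR at -21 and in MTAP at -72, that is in 4 of the 13 windows, since MTR has a pair of overlapping ones with the same match, and in 11.3% of all windows. The AP-1 motif TGANTCA, present in 7.71% of all windows, had no match in the windows of the 9 genes. Both strands were searched, and no motif matched overlapping letters in the stretches shown. A match is only a match of letters, and nothing in these data measures binding.

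Total counts per library ran from 24773003 to 35208304. Levels are given as CPM, counts scaled to a common library total with TMM factors over all 12 libraries. Differences are log2 fold changes from edgeR's quasi-likelihood test within a line. A gene was called where its p, adjusted by Benjamini-Hochberg over every gene tested, was 0.1 or less. The TWEAK replicate 2 library of SKBR3 stood apart from its partners, with a chi-square per degree of freedom of 21.1 and 23.8 against them, where replicates 1 and 3 gave 2.22 and the untreated pairs 1.78 to 5.74. TWEAK replicate 2 of MDA-MB-453 also stood apart, with 10.2 and 5.31 against 2.85 for replicates 1 and 3. Genes downstream of the receptor rose in both lines. BIRC3, an NF-κB target, rose by 3.42 on the log2 scale in SKBR3 and by 3.57 in MDA-MB-453 (adjusted p = 1.9e-08 and 1.6e-08), and NFKB2 rose by 1.79 and 1.67. RELB, a noncanonical NF-κB subunit, rose less in SKBR3, by 1.44, than in MDA-MB-453, by 2.75. TNFRSF12A, the gene of Fn14 itself, was called higher in SKBR3 (0.36, adjusted p = 0.0322 in edgeR). That call was lost without UT replicate 1 or 2. In MDA-MB-453 TNFRSF12A, at 0.17, did not pass (adjusted p = 0.129) and was called under 3 of 14 alternatives. ERBB2, which encodes HER2, stood at 7578 ± 285 CPM in untreated SKBR3 and 890 ± 16.1 CPM in untreated MDA-MB-453 (SD, n = 3). CDH1, an epithelial marker, was at 1 to 7 counts in every SKBR3 library and at 47.6 ± 1.51 CPM in untreated MDA-MB-453. The epithelial keratins KRT8, KRT18 and KRT19 went the other way. In untreated SKBR3 they were higher than in untreated MDA-MB-453 by 3.06, 1.95 and 2.55 on the log2 scale, and the epithelial marker EPCAM stood at -0.30. Of 9 markers of immune, endothelial and stromal cells, 7 were below 1 CPM in untreated SKBR3 and 8 in untreated MDA-MB-453, and their summed level was between 21.1 and 24.5 CPM across the SKBR3 libraries. In MDA-MB-453 that sum was between 106.6 and 123 CPM, most of it COL1A1. ACTA2, a stromal marker, was called higher in SKBR3 from 9 to 12 counts against 23 to 34 (1.49, adjusted p = 0.00547 in edgeR), and its part in the results was not tested.

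**Figure D1:**
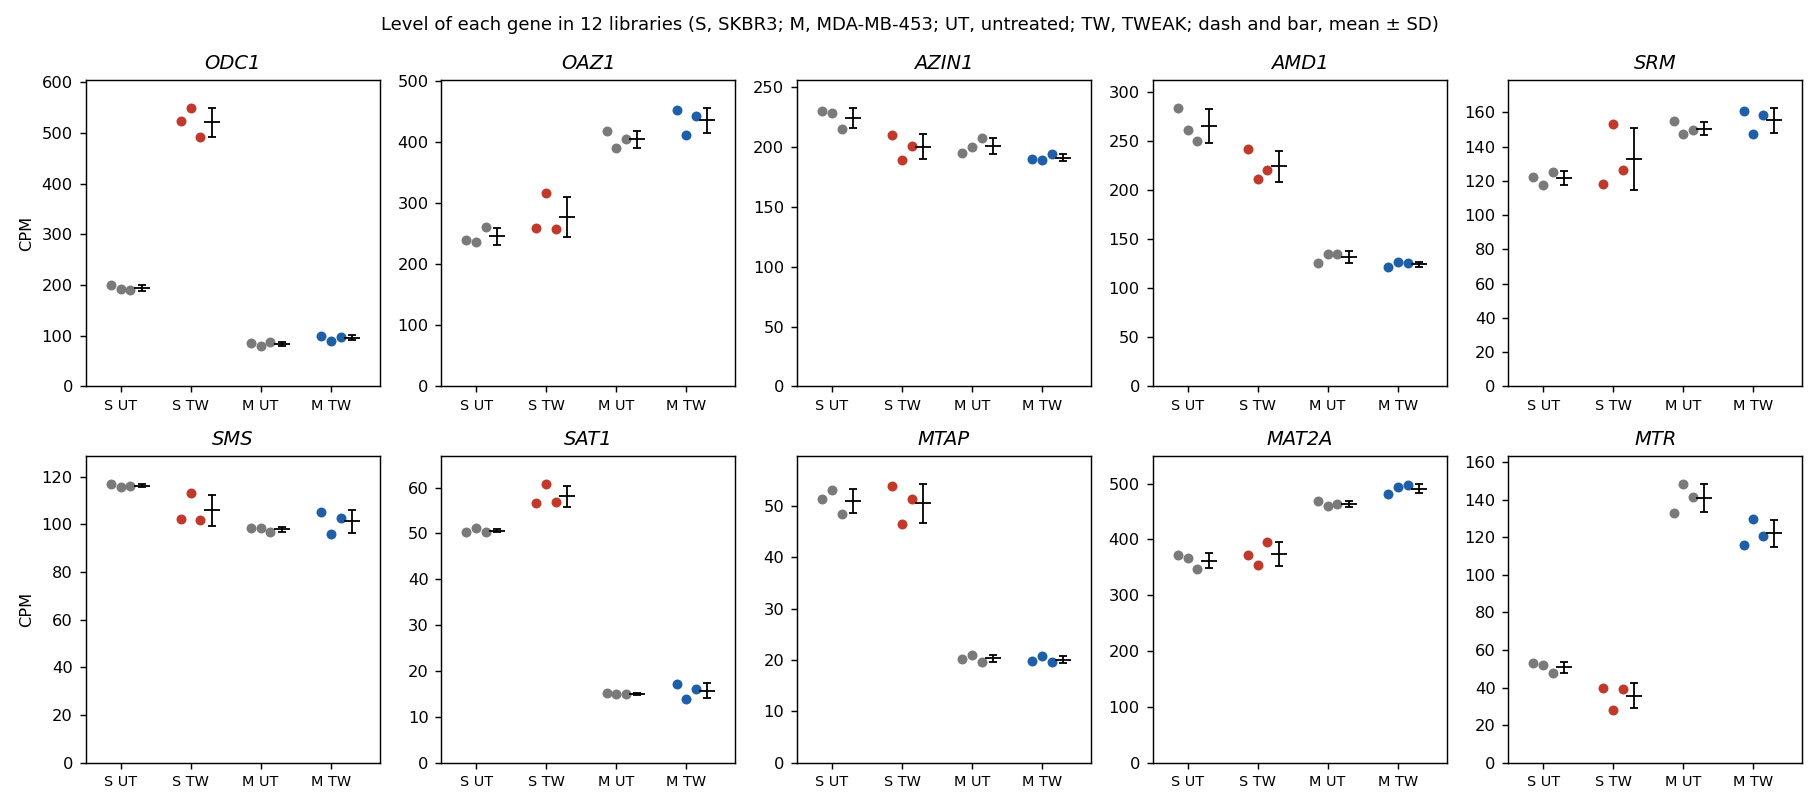
Level of each of the 10 genes in CPM (vertical axes, starting at 0) in the 12 libraries, with 1 point per library and the group mean ± SD beside the points. ODC1 in the 3 TWEAK-treated SKBR3 libraries sits between 491 and 549 CPM, above the 190 to 200 CPM of the untreated libraries.

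ODC1 was the one gene of the 10 with a large TWEAK difference, and it had it in SKBR3. Its level there was 200.4, 191.9 and 190.4 CPM in the untreated libraries (5576, 4634 and 4615 counts) and 523, 549 and 491 CPM with TWEAK (12937, 13684 and 11770 counts). The groups lay far apart, and the lowest treated library was more than 2 times the highest untreated one. The fitted difference was 1.42 on the log2 scale (SE 0.0627, 95% interval 1.28 to 1.56), a 2.67-fold higher level, with an adjusted p of 1.7e-07 in edgeR. In MDA-MB-453 the level was 86.6, 80.1 and 86.7 CPM untreated and 99.9, 90.2 and 98.3 CPM with TWEAK. These groups did not overlap either, but the distance was small, 0.19 on the log2 scale (SE 0.0476, interval 0.09 to 0.29), and the adjusted p of 0.103 just missed the threshold. The gene was called there under 4 of 14 alternatives, with no filter (0.19, adjusted p = 0.00565), the replicate block (0.19, 0.00224), the GC and length correction (0.16, 0.0473) and without TWEAK replicate 2 (0.23, 0.000594). The test of the difference between the lines themselves, an interaction term fitted on the 12 libraries, gave 1.24 on the log2 scale (SE 0.0788, interval 1.07 to 1.40, adjusted p = 7.2e-08).

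Among the 1034 genes called higher in SKBR3, ODC1 ranked 177 by fold. Of the 2298 tested genes with at least 100 CPM in untreated SKBR3, ODC1 ranked 2 by log2 fold change, and its gain of 327 CPM ranked 19 among all 15661 tested genes. In MDA-MB-453 its gain was 11.7 CPM, rank 320 of 14929.

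Across the 10 genes in SKBR3, 1 was called higher (ODC1) and 2 lower (MTR and AMD1). Over all genes tested in that line 6.6% were called higher and 3.82% lower. In MDA-MB-453, 1 of the 10 was called lower (MTR) and 0 higher at the same threshold in edgeR, where 0.208% and 1.29% of all tested genes were. At an unadjusted p under 0.05 there were 5 of the 10 in SKBR3 (ODC1, AZIN1, AMD1, SAT1 and MTR), beside 19.7% of all tested genes, and 4 of the 10 in MDA-MB-453 (ODC1, OAZ1, MAT2A and MTR), beside 10.5% of all. In SKBR3 the 10 genes had a median log2 fold change of 0.01, beside -0.0074 over all tested genes, and in MDA-MB-453 a median of 0.05 beside 0.0016. The untreated and treated groups did not overlap for 6 of the 10 genes in SKBR3, where the same held for 26.5% of all tested genes. In MDA-MB-453 this was so for 4 of the 10 and for 15.1% of all. A correction for GC content and gene length moved the split of calls over all genes in SKBR3 from 1034 higher and 599 lower to 1264 and 1626, and in MDA-MB-453 from 192 and 31 to 230 and 115.

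**Figure D2:**
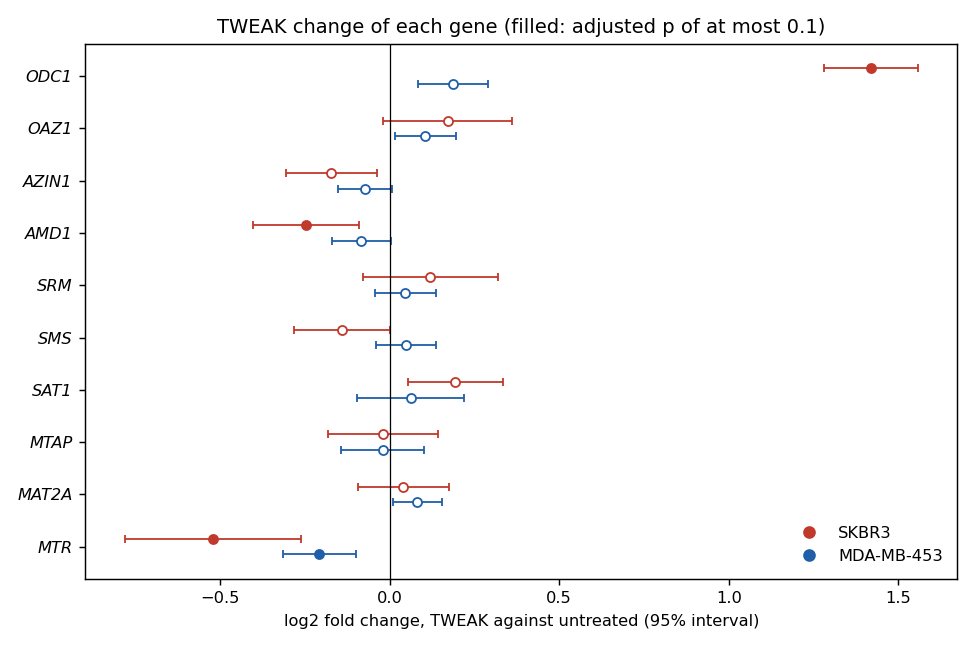
Fitted log2 fold change of TWEAK against untreated for each gene (horizontal axis), with 95% intervals, in SKBR3 (red) and MDA-MB-453 (blue). Filled points passed an adjusted p of 0.1, and the SKBR3 point of ODC1 at 1.42 stands clear of the other 9 genes, which lie between -0.52 and 0.19.

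The TWEAK differences of the regulators of the ODC1 protein did not pass the test in either line, and some alternatives called them. OAZ1 encodes antizyme, which binds ODC1 monomers and sends them to the proteasome. Its level was 239, 236 and 262 CPM in untreated SKBR3 and 259, 317 and 258 CPM with TWEAK, so that the groups overlapped and only the library of replicate 2 was high. The fitted difference was 0.17 (interval -0.02 to 0.36, adjusted p = 0.304 in edgeR), and 0.07 without that library. AZIN1 encodes a decoy that takes antizyme away from ODC1. Its level was 230.4, 228 and 215 CPM untreated and 210.5, 190 and 201 CPM with TWEAK in SKBR3, where every treated library was below every untreated one but the difference of -0.17 (interval -0.31 to -0.04) did not pass the test (adjusted p = 0.137 in edgeR). It was called lower under 3 of 14 alternatives, namely the GC and length correction, the fit on all 12 libraries and the one without SKBR3 TWEAK replicate 2 (adjusted p = 0.0574, 0.0408 and 0.0681). In MDA-MB-453 the differences were 0.11 for OAZ1 and -0.07 for AZIN1, and neither passed, although OAZ1 was called higher there with the replicate block (adjusted p = 0.0379) and without TWEAK replicate 2 (0.14, adjusted p = 0.00893).

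Counts of 2 genes from the same library can be set against each other without any scaling factor. The ratio of ODC1 to OAZ1 counts was 0.837, 0.813 and 0.726 in untreated SKBR3 and 2.02, 1.73 and 1.90 with TWEAK. In MDA-MB-453 it was 0.208 ± 0.0043 untreated and 0.22 ± 0.00178 treated (SD, n = 3). The untreated ratios of the 2 lines did not overlap, and all 3 treated SKBR3 libraries lay above every other library. In SKBR3 the ratio of ODC1 to AZIN1 counts went from 0.865 ± 0.0231 to 2.61 ± 0.247, and the MDA-MB-453 values were 0.4205 ± 0.0226 untreated and 0.503 ± 0.0242 treated. These ratios of transcripts were not tested separately from the fits, and an exact permutation test of 3 against 3 libraries cannot give a p under 0.1.

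**Figure D3:**
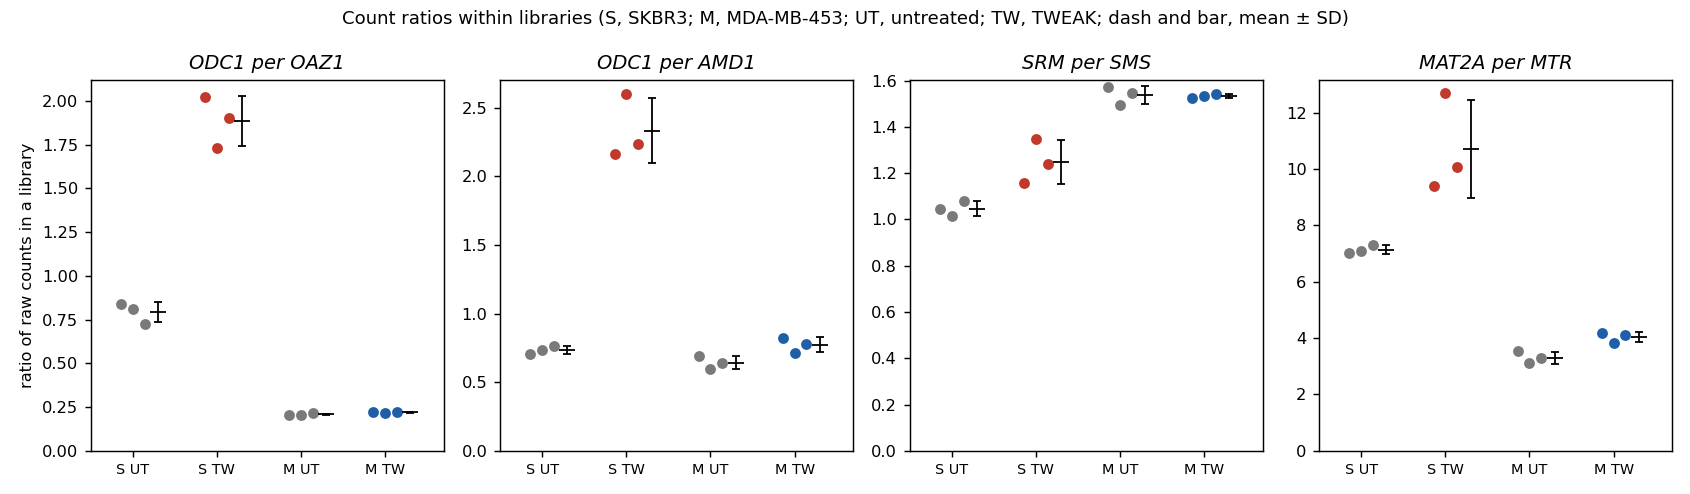
Ratio of raw counts of 2 genes in the same library (vertical axes, starting at 0) for 4 pairs, with 1 point per library and mean ± SD. ODC1 per AMD1 lies between 2.16 and 2.6 in TWEAK-treated SKBR3 and between 0.593 and 0.823 in the 9 other libraries.

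AMD1, which makes the aminopropyl donor, went the opposite way to ODC1 in SKBR3. It stood at 284, 261 and 250.3 CPM untreated and at 242, 211 and 220.1 CPM with TWEAK. The groups were close but did not overlap, and the difference of -0.25 (SE 0.0706, interval -0.40 to -0.09) was called lower with an adjusted p of 0.0633 in edgeR. The call was lost without SKBR3 UT replicate 1 (-0.19, adjusted p = 0.304), without UT replicate 2 (-0.26, 0.192) and without TWEAK replicate 3 (-0.23, 0.156), at differences of similar size. In MDA-MB-453, AMD1 was at 132 ± 5.7 CPM untreated and 124 ± 2.63 CPM with TWEAK (SD, n = 3), a difference of -0.08 that did not pass (adjusted p = 0.499 in edgeR). The interaction was -0.16 with an interval of -0.34 to 0.02 and did not pass (adjusted p = 0.543 in edgeR). Counts of ODC1 per count of AMD1 were 0.706, 0.736 and 0.761 in untreated SKBR3 and 2.16, 2.6 and 2.23 with TWEAK.

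The 2 aminopropyltransferases showed no called TWEAK difference. SRM, spermidine synthase, was at 122.3, 117 and 125 CPM in untreated SKBR3 and at 118.4, 153 and 126 CPM with TWEAK, where only replicate 2 was high. The difference was 0.12 (interval -0.08 to 0.32, adjusted p = 0.518 in edgeR). It was 0.01 without that library. SMS, spermine synthase, was very even in untreated SKBR3, at 117, 115.8 and 116 CPM, and stood at 102.3, 113 and 101.9 CPM with TWEAK. All 3 treated libraries were lower, and the difference was -0.14 (interval -0.28 to 0.00, adjusted p = 0.259 in edgeR). SMS was called lower under 2 of 14 alternatives, the GC and length correction (-0.21, adjusted p = 0.00602) and the one without TWEAK replicate 2 (-0.19, adjusted p = 0.00734). In MDA-MB-453 the differences were 0.05 for both genes, and both sets of groups overlapped. The ratio of SRM to SMS counts was 1.05 ± 0.0331 in untreated SKBR3 and 1.25 ± 0.096 with TWEAK, and 1.54 ± 0.0389 and 1.53 ± 0.0092 in MDA-MB-453.

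SAT1, the catabolic acetyltransferase, was at 50.4, 51.1 and 50.4 CPM in untreated SKBR3 and at 56.7, 60.8 and 56.9 CPM with TWEAK. Every treated library was higher by a small step. The difference was 0.19 (interval 0.05 to 0.33), and its adjusted p of 0.106 in edgeR was just above the threshold. SAT1 was called higher under 3 of 14 alternatives, namely the GC and length correction (0.17, adjusted p = 0.0362), all 12 libraries (0.20, 0.0472) and without TWEAK replicate 2 of SKBR3 (0.16, 0.0548). Its MDA-MB-453 level was far lower, at 409 to 411 counts or 15.1 ± 0.183 CPM untreated and 15.7 ± 1.64 CPM with TWEAK, with overlapping groups.

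MTR, methionine synthase, was the one gene of the 10 called lower in both lines. It stood at 53.2, 51.8 and 47.5 CPM in untreated SKBR3 and at 39.6, 27.9 and 39.3 CPM with TWEAK. The difference was -0.52 (SE 0.117, interval -0.78 to -0.26, adjusted p = 0.0193 in edgeR), with replicate 2 well below its partners. Without that library it was -0.37 and still called, with an adjusted p of 6.5e-05, the smallest with 1 library left out. With any 1 library left out the difference ran from -0.60 to -0.37. MTR was called each time, with an adjusted p of up to 0.095, close to the threshold. In MDA-MB-453 the level was higher throughout, at 132.9, 148 and 141 CPM untreated and 116, 129 and 121 CPM with TWEAK, and the highest treated library was just under the lowest untreated one. The difference was -0.21 (SE 0.0497, interval -0.31 to -0.10, adjusted p = 0.0745 in edgeR). This call was lost without UT replicate 2 (-0.17, adjusted p = 0.504), UT replicate 3 (-0.21, 0.369), TWEAK replicate 1 (-0.17, 0.124) or TWEAK replicate 3 (-0.20, 0.381), and in the fit on all 12 libraries (-0.21, 0.796), while the difference stayed of similar size. The interaction for MTR was -0.31 (interval -0.59 to -0.02) and did not pass the test (adjusted p = 0.387 in edgeR). It was called under 2 of 20 alternatives, with no filter (-0.33, adjusted p = 0.0407) and with the GC and length correction (-0.33, adjusted p = 0.0173). With 1 library left out it ran from -0.39 to -0.18, the smallest without SKBR3 TWEAK replicate 2, and was not called in any of these. Over all 20 alternatives it ran from -0.39 to -0.13.

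MAT2A and MTAP showed no called difference. MAT2A, which makes SAM in most cells, was among the more abundant of the 10, at 373, 366 and 347 CPM in untreated SKBR3 and 372, 354 and 396 CPM with TWEAK, with overlapping groups and a difference of 0.04 (interval -0.09 to 0.18). In MDA-MB-453 it was at 469, 459 and 463 CPM untreated and 482, 494 and 497 CPM with TWEAK, every treated library being slightly higher, and the difference of 0.08 (interval 0.01 to 0.16) did not pass (adjusted p = 0.406 in edgeR). Of the MAT2A exonic bases 12.5% lie opposite GGCX, and the strand setting of the counts is not given in the sources used here. MTAP was at 51 ± 2.39 and 50.5 ± 3.76 CPM in SKBR3 and at 20.3 ± 0.722 and 20.1 ± 0.699 CPM in MDA-MB-453 (untreated and treated, SD, n = 3). Its differences were -0.02 in both lines, with intervals of -0.18 to 0.14 and -0.14 to 0.10.

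Between the lines, the TWEAK difference of 1 of the 10 genes, ODC1, was called larger in SKBR3 and that of 0 was called smaller in edgeR, where 2.36% and 1.01% of all 17201 genes were. At an unadjusted p under 0.05, which 11.1% of all genes had, stood 3 of the 10, ODC1, SMS (-0.18, adjusted p = 0.327) and MTR. The interaction of SMS was called under 3 of 20 alternatives. These were the GC and length correction (-0.23, adjusted p = 0.0171), the fit without SKBR3 TWEAK replicate 2 (-0.25, 0.0166) and, chosen after seeing the data, that without both TWEAK replicates 2 (-0.28, 0.00153). DESeq2 called ODC1 alone as well. A correction for GC content and length moved the split over all genes from 406 larger and 173 smaller to 532 and 493.

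The untreated lines already differed in all 10 genes. In untreated SKBR3, 6 were above and 4 below untreated MDA-MB-453, where 44.8% and 42.4% of all tested genes were called, so a call in this comparison is the usual outcome. SAT1 was 3.37-fold higher in SKBR3 (log2 1.75, SE 0.0554), MTAP 2.52-fold (1.33, SE 0.056), ODC1 2.31-fold (1.21, SE 0.043) and AMD1 2.02-fold (1.01, SE 0.0454). SMS at 0.25 and AZIN1 at 0.17 were slightly higher. MTR was 2.76-fold lower in SKBR3 (log2 -1.46, SE 0.0495) and OAZ1 1.64-fold lower (-0.71, SE 0.0428), while SRM at -0.30 and MAT2A at -0.35 were slightly lower. The correction for GC content and length moved the median over all genes by more than 0.1, from 0.03 to -0.19, and SMS then stood at -0.03 and was not called (adjusted p = 0.449). After the same correction AZIN1 stood at 0.05 (adjusted p = 0.0962), SRM at -0.52 and MAT2A at -0.54. Relative to the median of all genes, SMS lay 0.23 above before the correction and 0.17 above after it, and the other 9 genes kept their side of that median. In bulk RNA, fewer cells of a kind and less RNA per cell cannot be told apart.

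Per length of exonic sequence the order of the genes also differed. The length was that of all annotated exons of a gene, merged over its transcripts. It was 19254 bases for MTR, 14527 for MTAP and 10193 for AMD1, against 3307 for ODC1 and 1894 for SRM. A long annotated model lowers the level per kb, so the order depends on the annotation as well as on the transcripts. In untreated SKBR3 the mean level was highest for MAT2A at 80.7 CPM per kb, then OAZ1 at 71.6, SRM at 64.2, ODC1 at 58.7, SMS at 54.6, AZIN1 at 36.6, AMD1 at 26, SAT1 at 20.4, MTAP at 3.51 and MTR at 2.64 CPM per kb. Each gene lay above the next in all 3 libraries. With TWEAK, ODC1 headed the order at 158 ± 8.68 CPM per kb, above MAT2A at 83.4 ± 4.67, and the neighbours MAT2A and OAZ1, OAZ1 and SRM, and SAT1 and AMD1 overlapped. In untreated MDA-MB-453 the order began with OAZ1 at 118, MAT2A at 103 and SRM at 79.5 CPM per kb, and ODC1 ranked 6 at 25.5 ± 1.14 CPM per kb. It kept that rank with TWEAK at 29.1 ± 1.58 CPM per kb.

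The surrounding pathways were examined in 6 lists of 54 further genes, of which 45 were tested in SKBR3 and 39 in MDA-MB-453. In SKBR3, 1 was called higher and 5 lower, beside 6.6% and 3.82% of all tested genes, and 10 of the 45 had an unadjusted p under 0.05, beside 19.7% of all. In MDA-MB-453 0 were called in either direction in edgeR and 0 in DESeq2, and 2 of the 39 had an unadjusted p under 0.05, beside 10.5% of all. Over the 6 lists the median log2 fold change in SKBR3 was -0.03, and the MDA-MB-453 median was 0.0011.

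Among the other polyamine enzymes and regulators, 1 of the 7 tested in SKBR3 was lower and 0 were higher, beside 3.82% and 6.6% of all tested genes. ARG2, the mitochondrial arginase that makes ornithine, the substrate of ODC1, was at 5.1, 5.3 and 4.79 CPM untreated and at 2.35, 2.57 and 2.3 CPM with TWEAK. The groups were well separated, with 116 to 142 counts against 55 to 64, and the difference was -1.08 (SE 0.128, adjusted p = 0.000298 in edgeR). In MDA-MB-453 ARG2 was more abundant, at 26.4 ± 1.8 and 26.7 ± 0.242 CPM, with a difference of 0.02, and the interaction of -1.09 passed (adjusted p = 6.3e-05 in edgeR). Of its exonic bases 39.6% lie opposite VTI1B. The oxidases SMOX and PAOX, the antizymes OAZ2 and OAZ3, SAT2 and AGMAT were not called in either line where tested.

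Of the polyamine transporters, 1 of 4 tested was lower in SKBR3, beside 3.82% of all tested genes. ATP13A2, a lysosomal polyamine exporter, was at 147, 148 and 160 CPM untreated and 111, 120.2 and 116 CPM with TWEAK, and the difference of -0.39 (SE 0.0632, adjusted p = 0.00254 in edgeR) exceeded that in MDA-MB-453 by an interaction of -0.34 (adjusted p = 0.0131). In the hypusine pathway, which uses spermidine to modify eIF5A, 0 of 4 tested genes were called in SKBR3 and 0 of 3 in MDA-MB-453 in edgeR and in DESeq2, with 1 at an unadjusted p under 0.05 in each line. Over all tested genes 6.6% were called higher and 3.82% lower in SKBR3 in edgeR, and 1.29% and 0.208% in MDA-MB-453. An unadjusted p under 0.05 was found for 19.7% and 10.5% of all. DHPS, deoxyhypusine synthase, was higher in all 3 treated SKBR3 libraries at 0.46, with an adjusted p of 0.111 in edgeR, and 38.8% of its exonic bases are shared with another gene model on its strand.

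The other methionine cycle and transsulfuration genes gave 1 lower call among 11 tested in SKBR3, beside 3.82% of all tested genes. CTH, cystathionine gamma-lyase, which releases cysteine at the end of transsulfuration, was at 6.72, 6.5 and 6.06 CPM untreated and 4.45, 4.21 and 4.47 CPM with TWEAK, a difference of -0.56 (SE 0.107, adjusted p = 0.00745 in edgeR). In MDA-MB-453 its difference of -0.07 did not pass. The interaction of -0.48 did not pass either (adjusted p = 0.13 in edgeR) and was called under 3 of 20 alternatives. MTRR, which reactivates MTR, was at -0.17 and AHCY, which hydrolyses S-adenosylhomocysteine, at 0.04, and neither passed. In methionine salvage, the 4 enzymes MRI1, APIP, ENOPH1 and ADI1 were not called. IL4I1, an amino acid oxidase placed in that list in some collections and better known for oxidising phenylalanine and tryptophan, was called higher in SKBR3, from 0.489 ± 0.221 to 3.89 ± 1.08 CPM (6 to 19 counts against 72 to 127), at 2.95 (SE 0.313, adjusted p = 0.000129 in edgeR). It was at 5 to 13 counts in every MDA-MB-453 library, too low to be tested there alone.

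In the folate cycle, which feeds the methyl group to MTR, 2 of 14 tested genes were lower in SKBR3, beside 3.82% of all tested genes. MTHFD2, a mitochondrial one-carbon enzyme, was at 208, 207 and 209.8 CPM untreated and 185, 177 and 186 CPM with TWEAK, a narrow gap of -0.20 (SE 0.0535, adjusted p = 0.052 in edgeR). Its call was lost under 7 of 14 alternatives, while the difference stayed between -0.20 and -0.17 in all of them. ALDH1L2, which oxidises mitochondrial 10-formyltetrahydrofolate, was at 14.4, 14.1 and 12.3 CPM untreated and 9.79, 7.46 and 11.9 CPM with TWEAK (-0.50, SE 0.143, adjusted p = 0.0656 in edgeR). Its call was lost under 5 of 14 alternatives at differences of similar size, -0.45, -0.47 and -0.56 without UT replicate 1, 2 and 3 and -0.50 without TWEAK replicate 1. For both, leaving out SKBR3 UT replicate 1, 2 or 3, or TWEAK replicate 1, was enough to lose the call, with adjusted p of up to 0.218 and 0.237, and for MTHFD2 also TWEAK replicate 3. The interactions of MTHFD2 and ALDH1L2 did not pass (adjusted p = 0.508 and 0.494 in edgeR). SHMT2, which passes a one-carbon unit from serine to folate in mitochondria, was not called in either line.

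A pair of further lists that touch the same metabolites were counted beside these. Of 8 transporters of methionine and other neutral amino acids or cystine tested, 2 were lower in SKBR3 and 0 in MDA-MB-453, beside 3.82% and 0.208% of all tested genes. SLC7A5, the LAT1 transporter that carries methionine, was at 775, 748 and 786 CPM untreated and 498, 496 and 539 CPM with TWEAK, at -0.60 (SE 0.0577, adjusted p = 6.3e-05 in edgeR), with an interaction of -0.54 (adjusted p = 0.000154). SLC1A5, a glutamine carrier, was at -0.19 (adjusted p = 0.098 in edgeR). Its call was lost under 8 of 14 alternatives, with adjusted p of up to 0.293, while the difference stayed of similar size. Among them were leaving out UT replicate 1, 2 or 3 (-0.20, -0.21 and -0.15) and TWEAK replicate 1 or 3 (-0.16 and -0.17). The interaction of SLC1A5, -0.22, did not pass (adjusted p = 0.109 in edgeR) and was called under 5 of 20 alternatives. Of 8 SAM-using methyltransferases tested, PRMT1 was the one called, higher in SKBR3, where 6.6% of all tested genes were called higher. It went there from 158, 149 and 164 CPM to 197, 239.7 and 202 CPM (0.43, SE 0.0821, adjusted p = 0.00715 in edgeR), and at 0.15 in MDA-MB-453 it did not pass (adjusted p = 0.2096). It was called there under 3 of 14 alternatives, namely with no filter, with the replicate block and without TWEAK replicate 2 (adjusted p = 0.0485, 0.0145 and 0.00201). The interaction of PRMT1, 0.29, did not pass (adjusted p = 0.167 in edgeR) and was called under 3 of 20 alternatives.

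**Figure D4:**
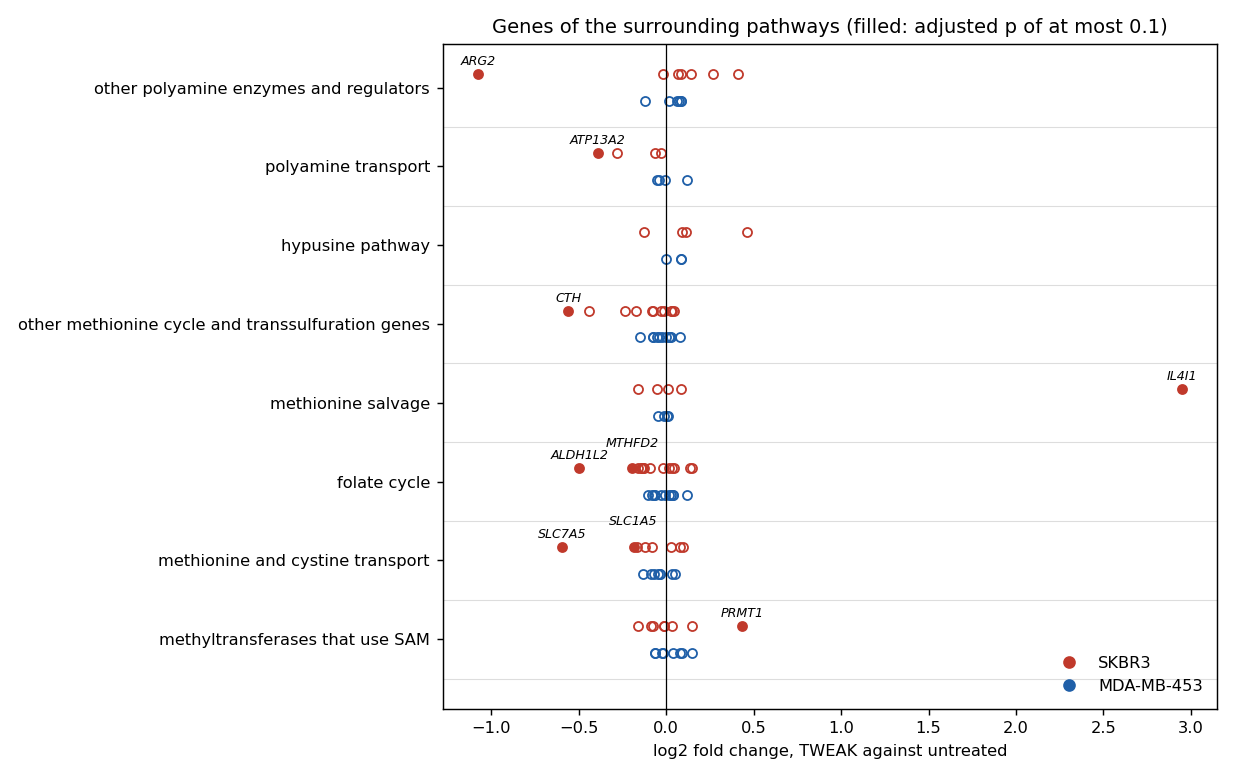
Fitted log2 fold changes of TWEAK against untreated (horizontal axis) for the tested genes of 8 lists, with 1 point per gene in SKBR3 (red) and MDA-MB-453 (blue) and filled, named points where the adjusted p was at most 0.1. All 9 named points are SKBR3 points, from ARG2 at -1.08 to IL4I1 at 2.95, and the MDA-MB-453 points stay between -0.15 and 0.15.

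MTAP lies on 9p21 beside CDKN2A and CDKN2B, with which it is often deleted together in tumours. All 3 were transcribed in both lines. In SKBR3, CDKN2B rose from 12.8 ± 0.517 to 34.3 ± 2.9 CPM with TWEAK (1.42, SE 0.0836, adjusted p = 1.5e-06 in edgeR) and CDKN2A from 22.5 ± 0.894 to 30.7 ± 2.83 CPM (0.44, SE 0.084, adjusted p = 0.00737), whereas MTAP, KLHL9 and FOCAD were not called. In MDA-MB-453 neither CDKN2B at -0.10 nor CDKN2A at 0.07 passed. Of the CDKN2A exonic bases 15.3% lie opposite CDKN2B-AS1. In the untreated cells KLHL9 was higher in SKBR3 by 1.02 on the log2 scale, FOCAD by 0.996, CDKN2A by 0.62 and CDKN2B by 1.80, beside 1.33 for MTAP.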

How the data were processed

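Poly(A) RNA-seq counts of 12 libraries were used. The authors removed adaptors (Trimmomatic), aligned the reads to hg38 (STAR) and summed them per gene (featureCounts); the deposited values are raw counts per gene with no normalisation, and versions, the strand setting and the treatment of multi-mapping reads are not given in the sources used here. The labels name a DNA library kit and the methods a directional RNA kit. Of 62696 identifiers, 62625 matched GENCODE 44, which gave symbols, positions and lengths.

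Counts were fitted with edgeR 4.0.16 in R 4.3.3 (filterByExpr, TMM, quasi-likelihood test, no replicate term), on 6 libraries within a line or between untreated lines and on 12 for the interaction. Benjamini-Hochberg adjustment ran over all genes tested, with a threshold of 0.1. The prior count of fitted folds was 0.125. Alternatives were DESeq2 1.42.0, its size factors, no filter, at least 10 counts per library, a replicate block, a threshold of 0.05, a correction for GC content and length, all 12 libraries, and each library left out.

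The members and lists were chosen with earlier results of these data known. Named genes are the 10 members, control genes, and from each list the called genes, up to 4 per line by size of change. Some uncalled genes of the lists are named as well. Intervals cover the spread between libraries; the methods call replicates biological. Promoters and motifs are from RefSeq GRCh38.p14. Depth of over 24773003 counts leaves the members at 373 counts or more in each library. Protein sequences were not used here.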

Additional observations from a re-analysis of the deposited data

Results flagged for a closer look

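The test of the interaction of line and treatment marked the following genes as having different TWEAK changes in SKBR3 and MDA-MB-453 (SKBR3 minus MDA-MB-453, log2 scale, edgeR). Of the 10 polyamine and methionine cycle genes it was ODC1, at 1.24. Of the surrounding genes, ARG2 differed by -1.09, ATP13A2 by -0.34, SLC7A5 by -0.54 and IL4I1 by 3.30, the last from 5 to 13 counts per library in MDA-MB-453. On 9p21, CDKN2B differed by 1.52 and CDKN2A by 0.37 (adjusted p = 0.0863). Of the control genes, RELB, a subunit of the noncanonical NF-κB pathway, differed by -1.30, from 1.2 to 1.3 CPM in untreated MDA-MB-453, and the keratin KRT19 by 0.35 (adjusted p = 0.0939). KRT19 was highest in SKBR3 TWEAK replicate 2, at 5402 CPM beside 4288 and 4365 CPM in the other treated libraries, and its part in the other results was not tested. CDKN2A lost its call in 13 of 20 alternatives, among them leaving out any 1 untreated library or any 1 treated MDA-MB-453 library, with an adjusted p of up to 0.198. KRT19 lost it in 11, with an adjusted p of up to 0.226. Among these were leaving out SKBR3 UT replicate 1 or 2, any 1 untreated MDA-MB-453 library, or TWEAK replicate 2 or 3 of that line. With 1 library left out the interaction ran from 0.28 to 0.42 for CDKN2A and from 0.22 to 0.41 for KRT19. The calls of ODC1, ARG2, ATP13A2, SLC7A5, IL4I1, CDKN2B and RELB held in all alternatives that were run.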

How the results depend on the processing

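The count of called members depended on the setting. In SKBR3 it was 3, but 2 at a threshold of 0.05, 6 after the GC and length correction, 5 with all 12 libraries, and 2 to 6 with 1 library left out. The calls over all genes moved too. They were 1034 higher and 599 lower of 15661, and 798 and 363 at 0.05. After the GC and length correction they were 1264 and 1626 of 15659, and with all 12 libraries 1507 and 1068 of 17201. In MDA-MB-453 the count of called members was 1, but 0 at a threshold of 0.05 or with all 12 libraries, 2 with no filter or the GC and length correction, 3 with the replicate block, and 0 to 3 with 1 library left out. Over all genes the calls there were 192 and 31 of 14929, and 131 and 13 of 17201 with all 12 libraries. They were 302 and 178 of 33154 with no filter, 230 and 115 of 14926 after the GC and length correction, and 490 and 404 of 14929 with the block. For the interaction it was 1, but 2 with no filter, 3 after the GC and length correction, 2 without both TWEAK replicates 2 (chosen after seeing the data), and 1 to 2 with 1 library left out. All 10 untreated differences held elsewhere, except SMS, which turned to -0.026 under the GC and length correction. ODC1 kept its SKBR3 call (1.36 to 1.46, 14 alternatives) and its interaction (1.14 to 1.28, 20 alternatives). In MDA-MB-453 ODC1 was called with no filter, the block, the GC and length correction or without TWEAK replicate 2. The adjusted p over its alternatives ran from 0.000594 to 0.571.

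Near 0, signs turned without a call. After the GC and length correction, MTAP was at 0.037 in SKBR3 and 0.013 in MDA-MB-453, SRM at -0.0016, ARG2 at -0.00703 and SLC1A5 at -0.0033 in MDA-MB-453. With 1 library left out, MTAP ran from -0.065 to 0.040 in SKBR3 and -0.050 to 0.0075 in MDA-MB-453, ARG2 from -0.031 to 0.065, CDKN2B from -0.22 to 0.017 and KRT19 from -0.059 to 0.0048 in MDA-MB-453. For the interaction these ranges were -0.048 to 0.12 for OAZ1, -0.052 to 0.16 for SRM and -0.042 to 0.048 for MTAP. Without both TWEAK replicates 2 the interaction was -0.082 for OAZ1 and -0.086 for SRM, and with no filter -0.011 for MTAP. The interaction of ACTA2, with at most 4 counts in any MDA-MB-453 library, was 0.99 with an SE of 1.08, and it ran from -0.52 to 1.55 with 1 library left out. The cause was not tested.

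Over all genes, SKBR3 calls (1034 higher, 599 lower) became 1589 and 1191 without TWEAK replicate 2, 1507 and 1068 with all 12 libraries, and 694 and 284, 686 and 240 or 851 and 327 without UT replicate 1, 2 or 3. MDA-MB-453 calls (192, 31) became 1003 and 1098 without TWEAK replicate 2, 302 and 178 with no filter, 131 and 13 with all 12 libraries, and 121 and 10, 120 and 11 or 132 and 11 without UT replicate 2, UT replicate 3 or TWEAK replicate 3. Interaction calls (406, 173) became 1113 and 964 without both TWEAK replicates 2 and 645 and 505 without that of SKBR3. They became 309 and 100 without SKBR3 UT replicate 2, 308 and 105, 305 and 97 or 320 and 95 without MDA-MB-453 UT replicate 1, 2 or 3, 304 and 90 without its TWEAK replicate 3, and 321 and 101 with the replicate block. At a threshold of 0.05 the counts were 798 and 363 for SKBR3, 150 and 17 for MDA-MB-453 and 306 and 95 for the interaction. The methods state that cell line experiments were repeated on separate days, but no source used here says that a replicate number marks a day. For each gene the deviation of log CPM from the mean of its group was taken. Between same-numbered untreated and treated libraries these deviations correlated at -0.11 to 0.08 in SKBR3 and 0.00 to 0.05 in MDA-MB-453. The block was therefore kept as an alternative. With it the SKBR3 calls were 824 and 387, and those of MDA-MB-453 were 490 and 404. With the block ODC1, OAZ1 and PRMT1 were called in MDA-MB-453 (adjusted p = 0.00224, 0.0379 and 0.0145), and MTHFD2, SLC1A5 and KRT19 were not in SKBR3 (0.173, 0.23 and 0.105), nor the interactions of CDKN2A and KRT19 (0.166 and 0.138). Where a call was lost the difference stayed of similar size. It was -0.20, -0.19 and 0.31 for MTHFD2, SLC1A5 and KRT19 in SKBR3, and 0.37 and 0.35 for the interactions of CDKN2A and KRT19.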
